A study of Mus musculus with 6 samples.

Results

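The genes described here are 5 STAT transcription factors (Stat3, Stat4, Stat5a, Stat5b and Stat6) and 4 members of the SOCS family of feedback inhibitors (Socs1, Socs2, Socs3 and Cish), measured in mouse regulatory T cells (Treg cells). They were taken by name: every probe set that the platform annotation lists under those symbols was used, which gave 22 of the 45101 probe sets on the array. All 9 genes passed the filter on dim genes and were among the 13646 genes tested. Treg cells had been sorted from C57BL/6 mice of 4 groups. The groups were Foxo1KO/Foxo1AAA (the Foxo1 knockout together with a constitutively active form of Foxo1, 1 array), Foxo1KO (the knockout alone, 2 arrays), Foxo1AAA (the active form in mice that keep Foxo1, 1 array) and WT (wild type, 2 arrays). The design sets the knockout against wild type and then asks what active Foxo1 brings back in it. The promoter that drives the deletion, the site of the Foxo1AAA allele, the ages of the mice and the number of mice behind each array are not stated in the sources used here.

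Cytokine receptors signal through JAK kinases, which phosphorylate STAT proteins. Phosphorylated STAT dimers enter the nucleus and bind DNA. Among the genes they switch on are Socs1, Socs2, Socs3 and Cish, whose proteins then dampen the same receptors. Interleukin-2 acts through Stat5a and Stat5b and is needed for the upkeep of Treg cells. Stat3 serves cytokines of the interleukin-6 and interleukin-10 families, Stat4 serves interleukin-12, and Stat6 serves interleukin-4. Foxo1 is a transcription factor that Akt removes from the nucleus, and the AAA form escapes that control. Transcript levels say nothing of STAT phosphorylation, which was not measured.

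Values are RMA values on the log2 scale, in which a difference of 1 is a doubling. The level of a probe set cannot be set against that of another. Each gene was tested on its brightest probe set with limma, and a gene was called changed at an adjusted p under 0.05 over all tested genes. The spread came from the Foxo1KO and WT pairs, and the lone Foxo1KO/Foxo1AAA and Foxo1AAA arrays were assumed to vary like them. The labels do not tie the replicates to different animals. The replicates differed in the Y chromosome gene Eif2s3y, as given below, so they were not repeats of the same RNA sample. Each p-value reflects array-to-array spread, and how many mice that spread covers is not known. The brightest Foxo1 probe set measured 9.66 in Foxo1KO/Foxo1AAA, 10.87 and 10.65 in Foxo1KO, 10.71 in Foxo1AAA and 11.03 and 11.35 in WT. It stayed bright in Foxo1KO, where it was lower than in WT by 0.43 (difference -0.43, adjusted p = 0.045), and since the deleted part was not given, the loss of Foxo1 is taken from the label. Of the Treg markers, Ctla4 lay between 12.29 and 13.06 and Ikzf2 between 13.26 and 13.63 on the 6 arrays. The only Foxp3 probe set read 5.10 to 5.58 and fell below the filter. Of 8 tested Treg markers, Ctla4 (0.46) and Tnfrsf4 (0.32) were called higher and Cd4 (-0.37) lower in Foxo1KO than in WT. That is 37.5%, against 21.8% of all tested genes. Ikzf4 was lower in Foxo1KO/Foxo1AAA than in Foxo1KO (-0.46) and in Foxo1AAA than in WT (-0.53). Ikzf2 was lower in Foxo1KO/Foxo1AAA than in Foxo1KO (-0.34).

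The arrays also differed in make-up. Xist, transcribed from the inactive X chromosome, measured 6.27 in Foxo1KO/Foxo1AAA and 6.04 in Foxo1AAA, against 13.14 and 12.59 in Foxo1KO and 13.43 and 12.03 in WT. The Y chromosome gene Eif2s3y measured 10.56 in Foxo1KO/Foxo1AAA, 4.05 and 9.91 in Foxo1KO, 10.59 in Foxo1AAA and 3.91 and 10.09 in WT. Replicate 1 of Foxo1KO and of WT thus carried high Xist and low Eif2s3y, and replicate 2 of both was high in both genes. Of 8 tested myeloid markers, 8 were higher in Foxo1KO/Foxo1AAA than in Foxo1KO and 8 were higher in Foxo1AAA than in WT. Their mean log2 value was 10.18 in Foxo1KO/Foxo1AAA, 7.89 and 7.52 in Foxo1KO, 9.86 in Foxo1AAA and 7.05 and 7.23 in WT. All 7 tested dendritic cell markers and 6 of 7 B cell markers were also higher in Foxo1AAA than in WT. An array has a background signal, so no marker can be read as absent, and the part of such cells in the differences below was not tested. In sorted cells measured in bulk, fewer cells of a type and less RNA per cell cannot be told apart.

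Treg cells labelled Foxo1KO carried more transcript of 3 of the 4 feedback inhibitors than WT cells. Socs3 was 2.03-fold, Socs1 1.71-fold and Cish 1.48-fold higher in Foxo1KO than in WT, whereas Socs2 was lower by 0.33 on the log2 scale. Among the STAT genes, Stat5b fell by 0.46, Stat3 rose by 0.32, and Stat4, Stat5a and Stat6 were not called. In all, 6 of the 9 genes were called, 4 higher and 2 lower, against 21.8% of all tested genes. The median of the 9 absolute differences was 0.33, against 0.15 over all tested genes.

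Socs3 blocks signalling at gp130, the shared chain of the interleukin-6 receptor family. It measured 12.39 and 12.37 in Foxo1KO, against 11.55 and 11.16 in WT. Both knockout arrays lay above both WT arrays, and the WT arrays were the ones that differed from each other. The difference was 1.02 (SE 0.13, 95% interval 0.73 to 1.32, adjusted p = 6.3e-04), and 4.09% of tested genes differed by as much or more.

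Socs1 binds JAK kinases and inhibits them directly. It measured 8.13 and 8.30 in Foxo1KO, against 7.37 and 7.51 in WT, and the groups did not overlap. The difference was 0.78 (SE 0.11, interval 0.54 to 1.02, adjusted p = 8.6e-04).

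Cish, the founding member of the family and a classical target of Stat5, acts on the interleukin-2 receptor. It measured 11.61 and 11.75 in Foxo1KO, against 11.11 and 11.12 in WT. The knockout arrays again lay above both WT arrays, by 0.57 on average (SE 0.10, interval 0.35 to 0.79, adjusted p = 0.0030). Of the myeloid markers 4 of 8, of the dendritic cell markers 4 of 7 and of the CD8 T and NK cell markers 4 of 7 were also higher in Foxo1KO than in WT, with 0 lower in any of these lists, and their part in these rises was not tested. Same-numbered Foxo1KO and WT arrays match in Xist and Eif2s3y but not in those markers, whose dendritic cell mean was 8.10 and 7.45 in Foxo1KO, against 6.89 and 7.18 in WT. Since the groups did not overlap for these 3 inhibitors, any pairing of arrays gives positive differences, and those of same-numbered arrays show size only. Groups of 2 arrays that do not overlap are weak evidence, here and for the genes below. An exact permutation test gives them p = 0.333, and their share over all genes was not counted. Replicate 1 of Foxo1KO exceeded replicate 1 of WT by 0.84 for Socs3, 0.76 for Socs1 and 0.51 for Cish. For replicate 2 the same differences were 1.21 for Socs3, 0.79 for Socs1 and 0.63 for Cish.

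Many STAT dimers bind palindromes of the form TTCNNNGAA, which reads the same on both strands. The promoter windows of Cish and Socs3 are shown because they hold it. That of Socs1, which also rose, held 0 matches. Sites with another spacing were not searched. RefSeq windows on build GRCm38.p6, each 250 bases before to 50 after a transcript start, were listed for 8 of the 9 genes (11 windows, none for Socs2). TTCNNNGAA occurred in those of Cish and Socs3, and in 8.33% of all 32544 distinct windows. Cish held 2 matches, and 0.461% of all windows held 2 or more. The first Cish match begins at the first transcribed base and the second ends at base 20, while the Socs3 match spans bases -154 to -146. The forkhead core GTAAACA, searched on both strands, occurred in 0 of the 11 windows and in 3.66% of all windows. Matches are letters only, and binding was not measured. Capitals mark TTCNNNGAA in the windows of Cish (chr9:107296409-107296678, plus strand, ending 20 bases after the start) and Socs3 (chr11:117969367-117969616, minus strand, ending at the start).
Cish: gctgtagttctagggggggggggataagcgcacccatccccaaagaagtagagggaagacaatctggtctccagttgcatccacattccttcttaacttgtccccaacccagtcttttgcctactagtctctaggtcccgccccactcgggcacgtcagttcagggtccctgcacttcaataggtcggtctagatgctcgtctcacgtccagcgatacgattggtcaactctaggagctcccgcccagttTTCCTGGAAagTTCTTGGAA
Socs3: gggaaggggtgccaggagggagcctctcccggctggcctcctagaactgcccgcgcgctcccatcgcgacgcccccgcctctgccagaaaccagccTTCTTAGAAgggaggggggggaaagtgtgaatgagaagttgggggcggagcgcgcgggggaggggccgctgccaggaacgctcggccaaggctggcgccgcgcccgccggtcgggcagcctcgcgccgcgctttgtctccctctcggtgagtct

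Socs2, best known for restraining growth hormone signalling, went the other way. It measured 10.57 and 10.64 in Foxo1KO, against 10.95 and 10.91 in WT, and both knockout arrays lay below both WT arrays. The difference was -0.33 (SE 0.09, interval -0.54 to -0.12, adjusted p = 0.035). Leaving out Foxo1KO replicate 1, Foxo1KO replicate 2, WT replicate 1 or WT replicate 2 removed the call, with adjusted p of 0.15, 0.085, 0.15 and 0.10 in that order (0.0098 to 0.15 over all alternatives).

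**Figure D1:**
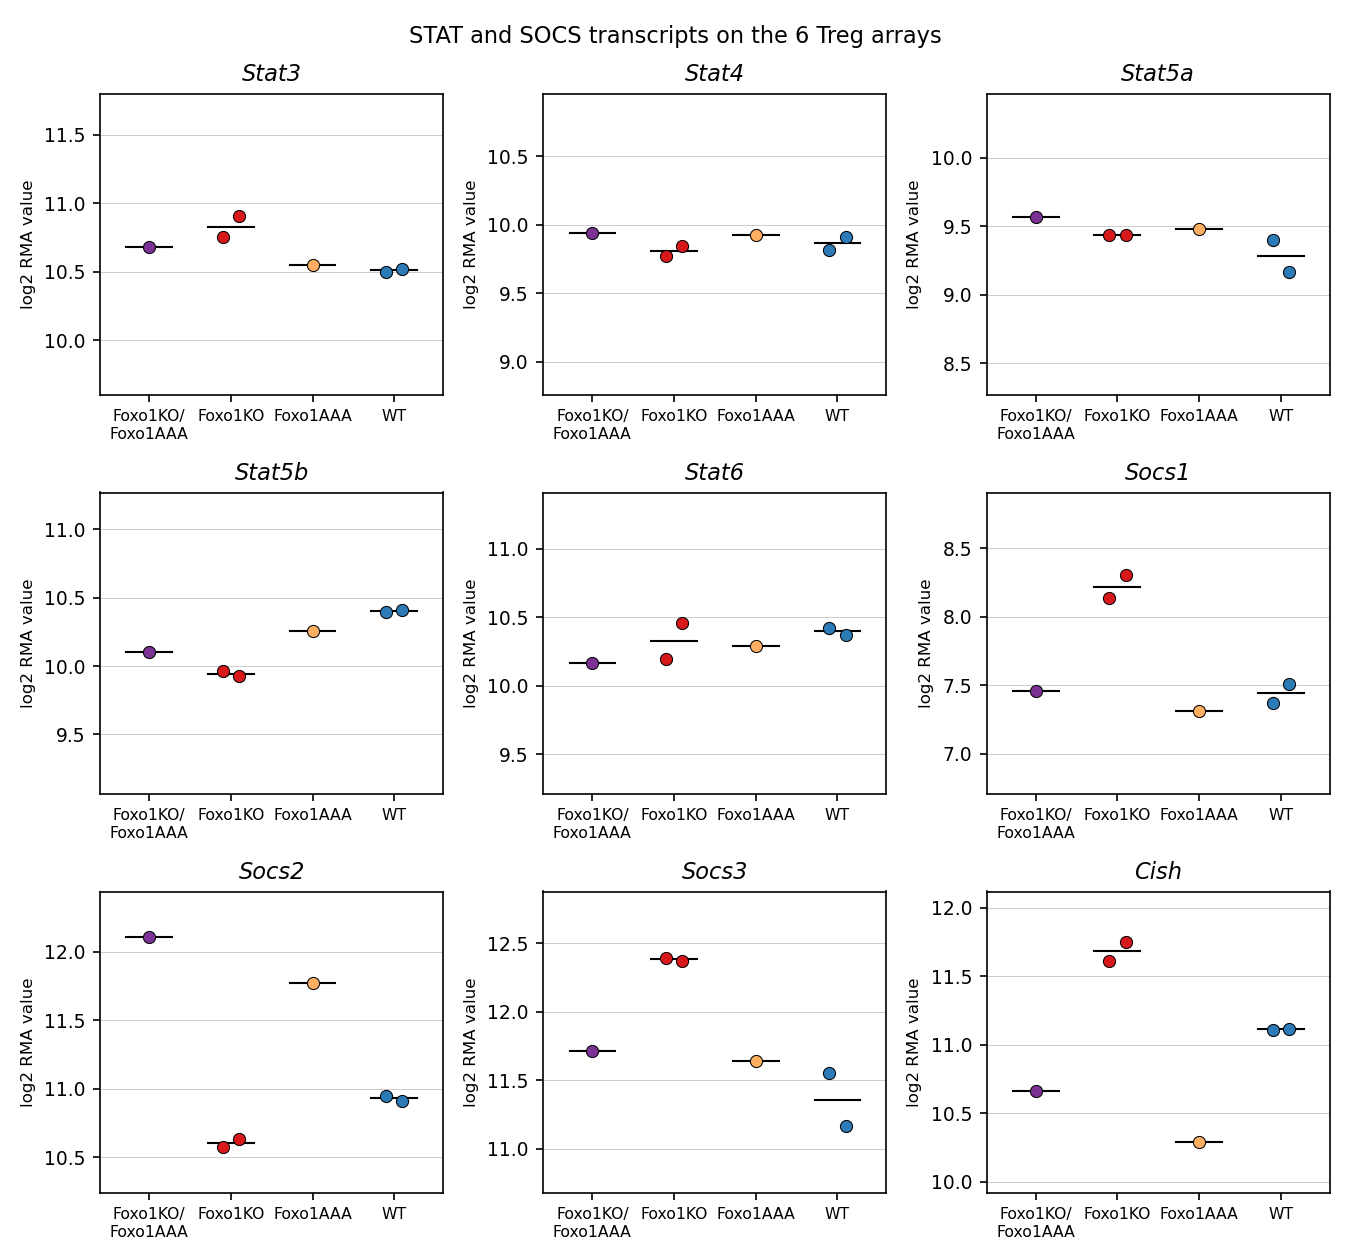
Log2 RMA value (vertical axis, each panel spanning 2.2 log2 units) of the tested probe set of each gene on the 6 arrays, by group along the horizontal axis. Points are arrays and lines are group means; Socs1, Socs3 and Cish are highest on the Foxo1KO arrays, and Socs2 is highest on the Foxo1KO/Foxo1AAA array (12.11) and lowest in Foxo1KO.

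Stat5b and Stat5a are closely related factors downstream of interleukin-2, and of the pair only Stat5b was called between Foxo1KO and WT. Stat5b measured 9.97 and 9.92 in Foxo1KO, against 10.39 and 10.41 in WT. Its knockout arrays lay below both WT arrays, by -0.46 (SE 0.09, interval -0.66 to -0.25, adjusted p = 0.0073). The dimmer Stat5b probe set 1422102_a_at differed by -0.24 and was not called in the limma fit of all probe sets (adjusted p = 0.28). Averaged over both probe sets, Stat5b differed by -0.35 and was called (adjusted p = 0.027). Stat5a measured 9.43 and 9.44 in Foxo1KO, against 9.40 and 9.17 in WT. Its groups did not overlap either, but the difference of 0.15 was not called (interval -0.09 to 0.39, adjusted p = 0.38). Stat5b, Stat5a and Stat3 are neighbours on chromosome 11 in the RefSeq annotation, with no other gene listed between them. Whether the difference of Stat5b itself differs from that of Stat5a was not tested.

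Stat3 measured 10.75 and 10.91 in Foxo1KO, against 10.50 and 10.52 in WT. The groups did not overlap and the difference was 0.32 (SE 0.10, interval 0.10 to 0.54, adjusted p = 0.049), which is close to the threshold. The call was lost when Foxo1KO replicate 1, Foxo1KO replicate 2, WT replicate 1 or WT replicate 2 was left out, with adjusted p of 0.065, 0.21, 0.16 and 0.13 in that order, and also without the filter and with arrays centred (0.021 to 0.21 over all alternatives). Averaged over its 4 probe sets, Stat3 differed by 0.19 (adjusted p = 0.13).

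Stat4 carries the interleukin-12 signal that drives Ifng. It measured 9.77 and 9.85 in Foxo1KO, against 9.82 and 9.91 in WT, with a difference of -0.05 (interval -0.27 to 0.16, adjusted p = 0.76). Stat6 measured 10.20 and 10.46 in Foxo1KO, against 10.42 and 10.37 in WT, with a difference of -0.07 (interval -0.32 to 0.18, adjusted p = 0.72). For both genes the groups overlapped.

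When active Foxo1 was present in the knockout, all 4 inhibitors were called changed relative to Foxo1KO, and none of the 5 STAT genes was on its brightest probe set. With the mean of all probe sets 6 of the 9 were called, since Stat5a was then higher (0.41, adjusted p = 0.024, range over alternatives 0.024 to 0.80) and Stat3 lower (-0.31, adjusted p = 0.038, range over alternatives 0.038 to 0.69). Cish, Socs1 and Socs3 fell and Socs2 rose, each opposite in direction to its difference between Foxo1KO and WT. That makes 4 of 9 genes called, 1 higher and 3 lower, against 39.8% of all tested genes, so the share over the whole set is near the background. The Foxo1KO arrays enter both comparisons, so opposite directions are partly built in. Of all called genes 49.2% were higher in Foxo1KO/Foxo1AAA than in Foxo1KO, and 26.8% with arrays centred on their median.

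Socs2 measured 12.11 in Foxo1KO/Foxo1AAA, against 10.57 and 10.64 in Foxo1KO. It was 2.84-fold higher (log2 1.51, SE 0.11, interval 1.25 to 1.76, adjusted p = 3.5e-05), and 2.62% of tested genes differed by as much or more. Averaged over its 6 probe sets it differed by 0.63, which was also called.

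Cish measured 10.66 in Foxo1KO/Foxo1AAA, against 11.61 and 11.75 in Foxo1KO. It fell by 1.02 (SE 0.12, interval -1.29 to -0.75, adjusted p = 3.9e-04). Socs1 measured 7.46 in Foxo1KO/Foxo1AAA, against 8.13 and 8.30 in Foxo1KO, and fell by 0.76 (SE 0.13, interval -1.06 to -0.47, adjusted p = 0.0025). Socs3 measured 11.71 in Foxo1KO/Foxo1AAA, against 12.39 and 12.37 in Foxo1KO, and fell by 0.67 (SE 0.16, interval -1.03 to -0.30, adjusted p = 0.012).

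These 4 calls held under every alternative run, and the largest adjusted p among them was 0.049, for Socs3. The differences of the 5 STAT genes ran from -0.16 for Stat6 to 0.15 for Stat5b, with a largest SE of 0.14. Centring every array on its median lowered every difference by 0.17 here, since the 2 arrays with active Foxo1 had the higher medians, and on that scale Stat4, Stat5a and Stat5b differed by -0.04, -0.04 and -0.02, and Stat3 was called lower (-0.32, adjusted p = 0.049).

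**Figure D2:**
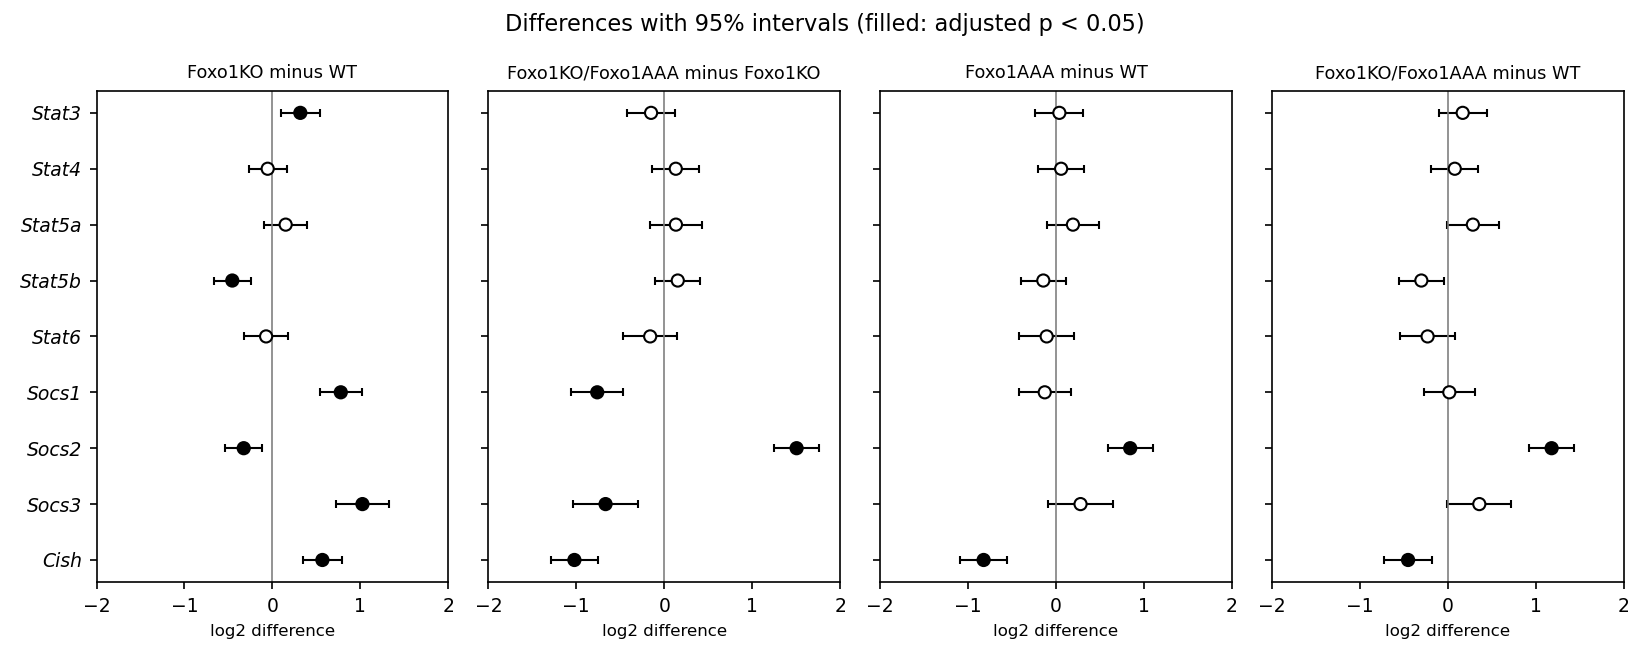
Log2 difference (horizontal axis) of each gene in 4 comparisons of groups, with 95% intervals from limma; filled points have an adjusted p under 0.05. The 4 inhibitors are called in opposite directions in Foxo1KO minus WT and in Foxo1KO/Foxo1AAA minus Foxo1KO, and Socs2 (1.18) and Cish (-0.45) are called in Foxo1KO/Foxo1AAA minus WT.

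Set against WT, the array with active Foxo1 in the knockout was called different for Socs2 and Cish, and with the mean of all probe sets also for Stat5a (0.48, adjusted p = 0.018, range over alternatives 0.018 to 0.60). Socs1 measured 7.46 in Foxo1KO/Foxo1AAA, between the WT values of 7.37 and 7.51 (difference 0.02, interval -0.28 to 0.31, adjusted p = 0.94). Socs3 at 11.71 lay above both WT arrays, by 0.36 on average (interval -0.01 to 0.72, adjusted p = 0.12), and was called higher without WT replicate 1 (0.55, adjusted p = 0.018, range over alternatives 0.018 to 0.48). The Socs3 probe set 1416576_at, described below, differed from WT by 0.67 here and was called higher in the fit of all probe sets. Socs2 was 2.27-fold higher than in WT (log2 1.18, SE 0.11, adjusted p = 1.7e-04), and by 0.32 averaged over its probe sets. Cish was lower than in WT by 0.45 (difference -0.45, SE 0.12, adjusted p = 0.021), a call that ended without WT replicate 2 (adjusted p = 0.058, range over alternatives 0.0052 to 0.058). These 2 of 9 genes compare with 30.7% of all tested genes, of which 55.2% were higher, or 23.6% with arrays centred on their median. Stat5b at 10.10 stayed below both WT arrays, by -0.30 (interval -0.56 to -0.05, adjusted p = 0.071), and with arrays centred on their median this became -0.50 and was called (adjusted p = 0.011), as was Stat6 at -0.43 (adjusted p = 0.031). The direction of Stat6 depended on the probe set. Without centring, its other probe set 1421708_a_at was called higher than in WT (0.45), and the mean of its probe sets differed by 0.11.

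Between Foxo1AAA and WT the genes called were also Socs2 and Cish; the WT arrays serve both comparisons. Socs2 measured 11.77 in Foxo1AAA, against 10.95 and 10.91 in WT, and was 1.79-fold higher (log2 0.84, SE 0.11, adjusted p = 0.0013). Cish measured 10.29 in Foxo1AAA, the lowest of the 6 arrays, against 11.11 and 11.12 in WT, a difference of -0.82 (SE 0.12, adjusted p = 0.0018). Socs1 (-0.13) and Socs3 (0.28) were not called, nor were the 5 STAT genes, whose differences ran from -0.14 for Stat5b to 0.19 for Stat5a on their brightest probe sets. The 2 of 9 genes called compare with 27.5% of all tested genes, of which 48.8% were higher, or 23.3% with arrays centred. The Socs2 call depended on the probe sets: averaged over all 6 of them the difference was 0.08 (adjusted p = 0.57, range over alternatives 1.2e-04 to 0.57). Socs3 was called higher without WT replicate 1 (0.47, adjusted p = 0.039, range over alternatives 0.039 to 0.75).

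In these 3 comparisons the array with active Foxo1 also differs from its counterpart in Xist and in the myeloid markers given above, and across all probe sets the pair with active Foxo1 stood apart (r = 0.994 between them, 0.971 to 0.980 to the rest). Active Foxo1 and this difference in make-up cannot be told apart. The 2 arrays with active Foxo1 are close in Xist and in the myeloid mean, and they were also set against each other. The myeloid marker Cd14 still differed, at 8.84 in Foxo1KO/Foxo1AAA and 7.35 in Foxo1AAA (1.49, adjusted p = 0.0092). Socs2 was higher by 0.34 in Foxo1KO/Foxo1AAA (interval 0.04 to 0.63) and Cish by 0.37 (interval 0.06 to 0.68). Both had an unadjusted p under 0.05 in limma, but neither was called (adjusted p = 0.42 for Socs2 and 0.39 for Cish), nor were the other 7 genes, whose absolute differences were at most 0.16. Of all tested genes 0.0733% were called between these 2 arrays, 10 genes with Cd14 among them.

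An interaction contrast compared the effect of the knockout in the presence and absence of active Foxo1, and in it 5.94% of all genes were called. Socs3 differed (interaction -0.95, SE 0.23, adjusted p = 0.046): its knockout difference was 0.08 with active Foxo1 and 1.02 without. Socs2 differed too (interaction 0.66, SE 0.16, adjusted p = 0.048), with knockout differences of 0.34 and -0.33. Both adjusted p lie just under the threshold. Leaving out either Foxo1KO array removed the Socs3 call (adjusted p = 0.12 for both), and so did centring the arrays (0.061, with 0.0035 to 0.12 over all alternatives). For Socs2 the call was lost when any of the 4 replicated arrays was dropped: Foxo1KO replicate 1 (adjusted p = 0.11), Foxo1KO replicate 2 (0.092), WT replicate 1 (0.087) and WT replicate 2 (0.071). Centring the arrays (0.055), testing dim genes too (0.053) or averaging the probe sets (0.060) also removed it, within 0.013 to 0.11 over all alternatives. For Socs1 the interaction of -0.63 missed the threshold (interval -1.05 to -0.22, adjusted p = 0.088), and for Cish it was -0.20 (interval -0.58 to 0.18, adjusted p = 0.61).

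The 6 genes with more than 1 probe set allow a check within the gene, and a fit of all 45101 probe sets set these side by side. Of the 22 probe sets, 7 were called between Foxo1KO and WT (5 higher, 2 lower), against 13.7% of all probe sets. The 3 Socs3 probe sets rose in Foxo1KO, by 1.02, 1.12 and 1.00. Of these, 1455899_x_at and 1456212_x_at carry the suffix for probes shared with other sequences, and 1416576_at does not. The probe set 1416576_at measured 9.66 and 9.64 in Foxo1KO, against 8.72 and 8.57 in WT. It measured 9.31 in Foxo1KO/Foxo1AAA and was called higher there than in WT, by 0.67. With active Foxo1 in the knockout its difference from Foxo1KO was -0.33 and was not called (adjusted p = 0.076), and in Foxo1AAA it was called above WT (0.46, adjusted p = 0.031).

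Of the 6 Socs2 probe sets, all had negative differences between Foxo1KO and WT, from -0.57 to -0.03. Only 1438470_at, at -0.57, was called in this wider fit (adjusted p = 0.0052). In Foxo1KO/Foxo1AAA against Foxo1KO, 4 of the 6 rose, by 0.70 to 1.51, and 1442586_at fell by 0.64. This probe set measured 6.72 in Foxo1KO/Foxo1AAA, 7.43 and 7.30 in Foxo1KO, 6.91 in Foxo1AAA and 7.34 and 7.46 in WT. The dimmest, 1441476_at, never exceeded 4.62 and its difference of 0.13 was not called. For Foxo1AAA against WT the bright pair (1449109_at and 1418507_s_at) rose by 0.84 and 0.41, while the 4 dim probe sets ran from -0.49 to 0.02.

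The Stat3 probe sets fell into bright and dim pairs that disagreed. The bright ones (1460700_at and 1426587_a_at) differed by 0.32 and 0.34 between Foxo1KO and WT, with adjusted p of 0.082 and 0.055 over all probe sets. The dim ones differed by -0.03 and 0.14. In Foxo1KO/Foxo1AAA against Foxo1KO the dim pair fell by 0.64 (1459961_a_at) and 0.58 (1424272_at), and the bright pair differed by -0.15 and 0.12. Stat6 disagreed likewise, since 1421708_a_at rose by 0.54 in that comparison while the brighter 1426353_at differed by -0.16. The dim Stat5a probe set 1450259_a_at rose by 0.70 there, measuring 6.16 in Foxo1KO/Foxo1AAA against 5.34 and 5.58 in Foxo1KO. The brighter Stat5a probe set differed by 0.13 there, in the same direction but not called, whereas those of Stat3 and of Stat6 gave no single direction. Set against WT, the bright Stat3 probe set 1426587_a_at was called higher both in Foxo1KO/Foxo1AAA (0.47, adjusted p = 0.026) and in Foxo1AAA (0.50, adjusted p = 0.022), while 1460700_at differed by 0.17 and 0.04 and was not called. The dim Stat3 pair went the other way. In Foxo1KO/Foxo1AAA both were called lower than in WT, by 0.67 (1459961_a_at) and 0.44 (1424272_at). In Foxo1AAA they differed from WT by -0.20 and -0.42 and were not called. Between Foxo1KO/Foxo1AAA and Foxo1KO 13 of the 22 probe sets were called, 6 higher and 7 lower, against 30.7% of all probe sets, and between Foxo1AAA and WT 6 were called, 4 higher and 2 lower, against 23.6%.

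**Figure D3:**
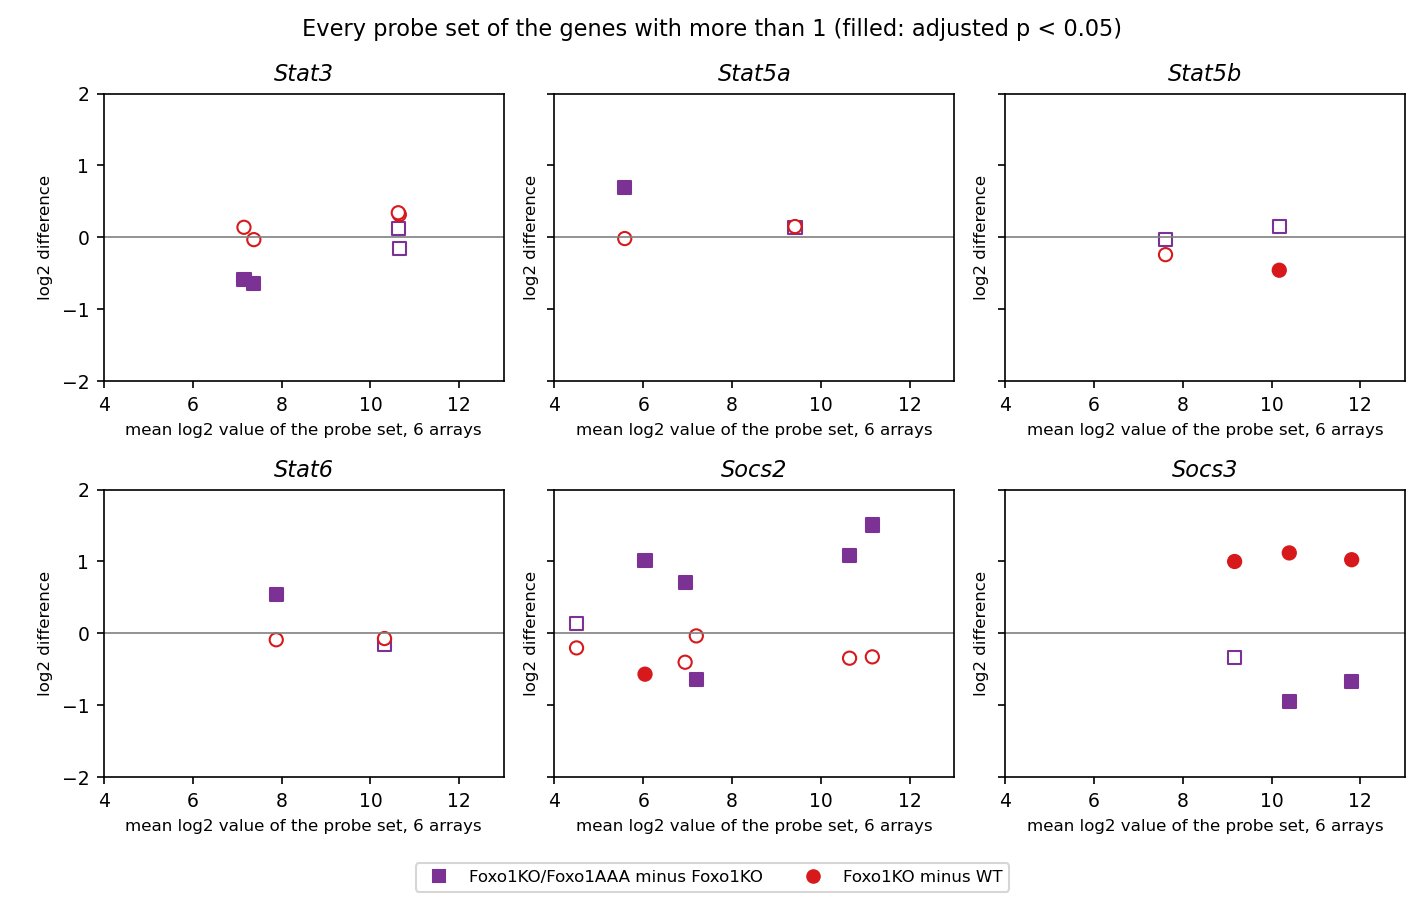
Log2 difference (vertical axis) of every probe set of the 6 genes with more than 1, against its mean log2 value over the 6 arrays (horizontal axis); squares are Foxo1KO/Foxo1AAA minus Foxo1KO and circles are Foxo1KO minus WT, filled where the adjusted p over all probe sets is under 0.05. The 3 Socs3 circles lie together near 1, while the Stat3 and Stat6 squares split by brightness.

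Other genes of the pathway were counted from lists of known members, and each count stands beside the 21.8% of all tested genes called in Foxo1KO against WT, 39.8% in Foxo1KO/Foxo1AAA against Foxo1KO and 27.5% in Foxo1AAA against WT. Several of these lists hold few genes. The filter used the mean over all arrays, so a gene dim in some groups could pass on others, which partly sets these counts. Of 5 genes (Jak1, Jak2, Jak3, Tyk2 and Stat2), 2 rose and 1 fell in Foxo1KO against WT, with a median of 0.23 beside 0.03 for all tested genes. Jak2 rose by 0.53 (adjusted p = 0.0036) and Jak3, the partner of the common gamma chain, by 0.45 (adjusted p = 0.0077). Jak1 fell by 0.45 (adjusted p = 0.017), and Tyk2 (0.08) and Stat2 (0.23) were not called. Jak2 and Tyk2 fell by 0.83 and 0.54 in Foxo1KO/Foxo1AAA against Foxo1KO, and Jak1 rose by 0.55. In Foxo1AAA against WT the largest difference of the 5 was that of Stat2, at 0.44, which was not called (adjusted p = 0.054).

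Of 16 other negative regulators, 1 rose and 4 fell in Foxo1KO, with a median of -0.10. The share called was 31.2% there and 37.5% in Foxo1KO/Foxo1AAA against Foxo1KO, near those of all tested genes. The inhibitory adaptor gene Sh2b3 measured 8.02 and 7.89 in Foxo1KO, against 8.78 and 8.68 in WT, and fell by 0.78 (adjusted p = 6.0e-04). Ptpn6, which encodes the phosphatase SHP-1, fell by 0.58, Socs5 by 0.46 and the ubiquitin ligase scaffold Cul5 by 0.35, while Eloc, which links SOCS proteins to that ligase, rose by 0.32. With active Foxo1 in the knockout, set against Foxo1KO, 5 rose and 1 fell, with a median of 0.19: Ptpn6 and Socs5 rose by 0.87 and 0.86, Pias2 by 0.77 and Sh2b3 by 0.70. In Foxo1AAA against WT, Pias2 and Socs5 rose by 0.77 and 0.70 and Ptpn2 fell by 0.44.

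Of 20 tested receptor chains, 6 rose and 5 fell in Foxo1KO, with a median of -0.02 and 55% called. Both chains of the interleukin-6 receptor fell: Il6st, which encodes gp130, measured 9.26 and 9.19 in Foxo1KO, against 10.55 and 10.84 in WT (-1.47, adjusted p = 4.3e-05), and Il6ra fell by 1.74 (adjusted p = 1.1e-05). Il12rb1, a chain of the receptor upstream of Stat4, rose by 1.88 (adjusted p = 9.9e-06), and Il7r fell by 1.47. The interleukin-2 receptor chains Il2ra (-0.06) and Il2rb (0.14) were not called. In Foxo1KO/Foxo1AAA against Foxo1KO, 7 rose and 4 fell with a median of 0.07, among them Il6ra (1.84), Il6st (1.79), Il7r (2.35) and Il12rb1 (-1.59). Csf2rb, a receptor chain that myeloid cells also express, rose most, by 3.11. It was also higher in Foxo1AAA than in WT by 3.07, beside the myeloid marker levels given above. Csf2rb measured 5.73 and 5.13 in Foxo1KO and 5.06 and 5.25 in WT, and passed the filter on its mean over all arrays. In Foxo1AAA against WT, 5 rose and 2 fell, with a median of 0.12.

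Of 22 listed cytokines 10 were tested, as the others had no probe set of their own or fell below the filter. Among these 10, 7 rose and 0 fell in Foxo1KO, with a median of 0.75 and 70% called. The filter favours cytokines raised in some group, so this direction and share are partly set by it. Il21, for example, measured 4.78 and 5.15 in WT, below the filter of 5.47. Ifng, the product of Stat4 signalling, rose by 2.32 and Il4, which signals through Stat6, by 1.44. Il10 and Il21, which signal through Stat3, rose by 0.99 and 0.69. Cell cycle markers moved with them, 7 of 7 rising, and of the CD8 T and NK cell markers 4 of 7 rose, with mean levels of 7.55 and 7.61 in Foxo1KO and 6.23 and 6.26 in WT. The part of those cells was not tested. Relative to Foxo1KO, 4 rose and 3 fell in Foxo1KO/Foxo1AAA: Il2 rose by 2.20 and Il21 by 1.32, and Lif fell by 1.45 and Ifng by 0.90. In Foxo1AAA against WT, 5 rose and 1 fell, led by Il4 at 1.57.

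Lists of known targets of Stat3, Stat4, Stat5 and Stat6 were described in the same way, and some genes belong to more than 1 list. In Foxo1KO against WT, 5 of 7 tested Stat4 targets rose and 0 fell (median 0.83), led by Ifng and Tbx21 (2.23), although Stat4 itself was not called. Of the CD8 T and NK cell markers, Klrc1 rose beside them by 4.04, Eomes by 2.25, Xcl1 by 1.27 and Klrd1 by 1.23. Cd8a (0.19), Cd8b1 (0.18) and Ncr1 (0.21), the other tested markers of that list, were not called. The part of such cells was not tested. In Foxo1KO/Foxo1AAA against Foxo1KO, 6 of these 7 fell and 0 rose (median -0.92), led by the interleukin-18 receptor chains Il18r1 (-2.06) and Il18rap (-1.80). Of 9 Stat3 targets, 7 rose and 0 fell in Foxo1KO (median 0.61), Bcl3 by 1.28 and Maf by 0.84. With active Foxo1 in the knockout 3 rose and 4 fell, with Rora lower by 1.59. Of 11 Stat5 targets, 3 rose and 3 fell in Foxo1KO (median -0.12): Gadd45g rose by 1.47 and the survival gene Bcl2 fell by 1.51. In Foxo1KO/Foxo1AAA against Foxo1KO, 4 rose and 3 fell, with the kinase gene Pim2 higher by 2.17. Of 7 Stat6 targets, Il4 and Ccr8 (0.53) rose in Foxo1KO and 0 fell (28.6% called, near the share of all genes), and with active Foxo1 in the knockout Il4 rose by 0.69 and Bcl6 fell by 0.45. In Foxo1AAA against WT, 4 Stat4 targets fell and 0 rose, Il18r1 at -1.30 leading, 5 Stat3 targets rose and 2 fell, 3 Stat5 targets rose and 0 fell (27.3% called, near the share of all genes), Pim2 at 1.39 leading, and 1 Stat6 target rose and 1 fell. The myeloid and dendritic cell markers rose in both of these comparisons with active Foxo1, and their part in the list counts was not tested.

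**Figure D4:**
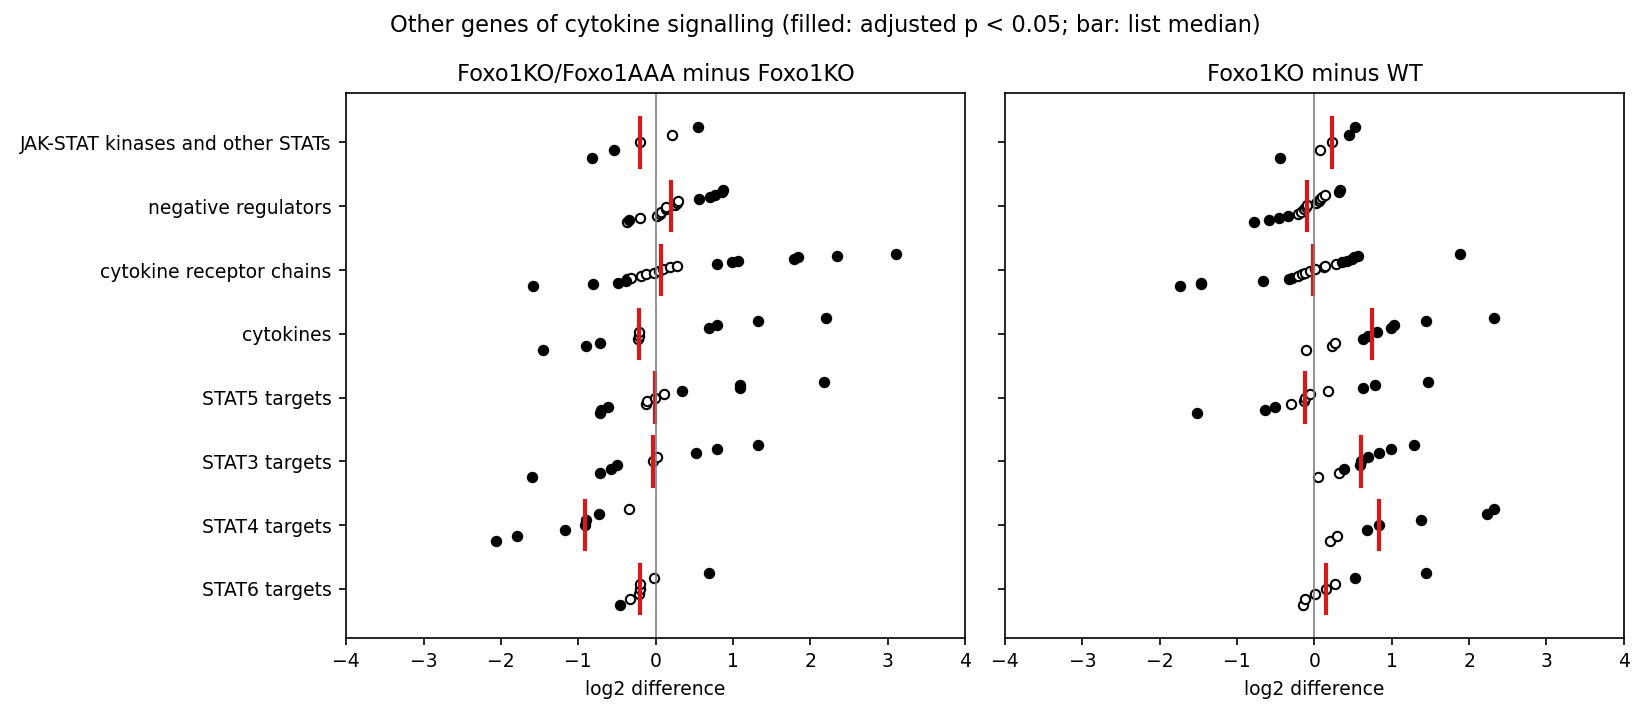
Log2 difference (horizontal axis) of each tested gene of 8 lists, in rows, for Foxo1KO/Foxo1AAA minus Foxo1KO and for Foxo1KO minus WT; filled points have an adjusted p under 0.05 and red bars are list medians. The Stat4 target row lies to the right of 0 in Foxo1KO (median 0.83) and to the left with active Foxo1 in the knockout (median -0.92).

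Likeness of pattern was measured as the root mean square difference over the 6 arrays after centring each gene, for the 3 genes that varied most. Socs2 had an SD of 0.63 over the arrays, and the gene nearest to it was Camsap1, at 0.021 log2 units, followed by Dnajc15 and Wdr12 at 0.060 each, among 3082 genes. Camsap1 measured 9.56 in Foxo1KO/Foxo1AAA, 7.98 and 8.11 in Foxo1KO, 9.21 in Foxo1AAA and 8.36 and 8.35 in WT, the same order of arrays as Socs2. Nearest to Cish (SD 0.55) were Tmem212 (0.083), Stmn2 (0.090) and Ildr1 (0.092), which lay between 5.06 and 7.19. Nearest to Socs3 (SD 0.49) were Gpr183 (0.034), Trafd1 (0.071) and Pmepa1 (0.088). Gpr183 measured 9.98 in Foxo1KO/Foxo1AAA, 10.59 and 10.62 in Foxo1KO, 9.86 in Foxo1AAA and 9.76 and 9.46 in WT.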

How the data were processed

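The authors' deposited values were log2 values, 1 column per array, made by RMA; the submitters' processing notes name R 2.15 and limma 3.12.1. RMA corrects background, quantile-normalizes arrays and summarizes each probe set. Biotin-labelled cRNA was hybridised, per the labels' protocols. Quantile normalization can hide a general rise or fall, and very bright or dim probe sets understate differences. The number of arrays limits the precision.

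Of the 45101 probe sets, 34958 had 1 gene in the platform annotation, 932 had several and 9211 were not listed. The brightest probe set of each of 18195 genes was kept, and the lowest 25% of genes by mean were left out, which left 13646 (mean at least 5.47). The fit used limma 3.58.1 (R 4.3.3) with a coefficient for each group, 2 residual degrees of freedom and a prior of 6.59 degrees of freedom. Tests were two-sided with Benjamini-Hochberg adjustment. With 2 arrays a group, the smallest p of an exact permutation test is 0.333. The comparison of both arrays with active Foxo1 was added after their make-up was seen. Tested on data simulated for Foxo1KO against WT over 13646 genes, 99% of genes changed by log2 1 were recovered. Alternatives were the mean of probe sets, no filter, a 50% filter, a robust prior, a trended prior, centred arrays, each replicated array left out, and a replicate block.

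The genes, lists and tests were chosen with earlier results of these data known. The named genes are all 9 members, the called genes with the largest differences in each list with a few others, and the 3 nearest patterns of the 3 most variable members. One planned list of target genes is not reported here.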

Additional observations from a re-analysis of the deposited data

Results flagged for a closer look

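The knockout difference of Socs3 with active Foxo1 was set against that without it. The interaction was -0.95 (limma, adjusted p = 0.046), from a difference of 0.08 between Foxo1KO/Foxo1AAA and Foxo1AAA and of 1.02 between Foxo1KO and WT. For Socs2 the interaction was 0.66 (limma, adjusted p = 0.048), from differences of 0.34 and -0.33. Of 10 alternatives, 3 removed the Socs3 call (adjusted p from 0.0035 to 0.12 over all 10) and 7 removed the Socs2 call (0.013 to 0.11), and with arrays centred 0 of the 9 genes were called. Each rests on a single array for each group with active Foxo1, and those arrays also carried the higher myeloid marker levels (means of 10.18 in Foxo1KO/Foxo1AAA and 9.86 in Foxo1AAA, against 7.52 to 7.89 in Foxo1KO and 7.05 to 7.23 in WT), whose part was not tested.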

How the results depend on the processing

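The 4 inhibitor differences between Foxo1KO/Foxo1AAA and Foxo1KO, and those of Socs1, Socs3, Cish and Stat5b between Foxo1KO and WT, kept their direction and call under every alternative run. Of all differences of the 9 genes under the alternatives, 494 kept direction and side of the threshold, 25 lost a call, 9 gained one and 21 changed sign; for those changes the cause was not tested. With the mean of all probe sets, 1 of the 9 genes was called in Foxo1AAA against WT and 1 in the interaction, and 41 genes were called in Foxo1KO/Foxo1AAA against Foxo1AAA. In that last comparison 73 genes were called with no filter, 3 with the lowest 50% left out, 38 with a robust prior, 30 with a trended prior and 3 with arrays centred. Without the filter 1 of the 9 genes was called in the interaction, and with arrays centred 0. With the lowest 50% left out, and so fewer genes tested, 3425 genes were called in Foxo1KO/Foxo1AAA against Foxo1KO and 2236 in Foxo1AAA against WT. A trended prior gave 11 of the 22 probe sets in Foxo1KO against WT, and the share of all probe sets under it is not given here. Centred arrays gave 4 of the 9 genes in Foxo1KO/Foxo1AAA against WT. Over all tested genes the number called also rose with centring, from 4194 to 5998 of 13646. The share of the 9 genes is thus near the background of that setting.

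Leaving out 1 replicated array gave 2015 to 2334 genes called in Foxo1KO against WT, 3854 to 5523 in Foxo1KO/Foxo1AAA against Foxo1KO, 2773 to 3504 in Foxo1AAA against WT, 2931 to 3974 in Foxo1KO/Foxo1AAA against WT, 7 to 91 in Foxo1KO/Foxo1AAA against Foxo1AAA and 443 to 917 in the interaction. Of the 9 genes it gave 4 in Foxo1KO against WT, 4 in Foxo1KO/Foxo1AAA against Foxo1KO, 2 to 3 in Foxo1AAA against WT, 1 to 3 in Foxo1KO/Foxo1AAA against WT and 0 to 1 in the interaction. Of the 22 probe sets it gave 4 to 6 in Foxo1KO against WT, 9 to 13 in Foxo1KO/Foxo1AAA against Foxo1KO and 3 to 5 in Foxo1AAA against WT.

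The sign changes all concerned differences that were not called in the fit reported. With the mean of all probe sets, Stat6 became 0.19 in Foxo1KO/Foxo1AAA against Foxo1KO. Stat3 and Stat6 became -0.023 and 0.15 in Foxo1AAA against WT, and -0.12 and 0.11 in Foxo1KO/Foxo1AAA against WT. Stat3 became -0.10 in Foxo1KO/Foxo1AAA against Foxo1AAA, and Stat5a and Stat6 became 0.33 and 0.035 in the interaction. With arrays centred, Stat4, Stat5a and Stat5b became -0.042, -0.041 and -0.020 in Foxo1KO/Foxo1AAA against Foxo1KO. Stat3 and Stat4 became -0.13 and -0.11 in Foxo1AAA against WT. Stat3, Stat4 and Socs1 became -0.034, -0.12 and -0.19 in Foxo1KO/Foxo1AAA against WT, and Stat4 became -0.016 in Foxo1KO/Foxo1AAA against Foxo1AAA. With 1 array left out, Stat6 ran from -0.20 to 0.059 in Foxo1KO against WT, Socs1 from -0.055 to 0.087 in Foxo1KO/Foxo1AAA against WT, and in the interaction Stat5a from -0.18 to 0.058 and Stat6 from -0.18 to 0.077.

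Foxo1KO and WT share replicate numbers, which the labels do not tie to a pairing. Deviations of same-numbered arrays from their group means had r = -0.096, and r = -0.30 without Xist and the Y chromosome genes. With a replicate block, 2460 genes and 4 of the 9 genes were called in Foxo1KO against WT, and Stat3 (adjusted p = 0.098) and Socs2 (0.088) lost their calls.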
